A study of Mus musculus with 128 samples.

Results

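The transcription factor p53, encoded by Trp53, and its direct target genes were followed through mouse oocytes and cleavage embryos that lack or carry the maternal copy of the histone demethylase gene Kdm4a. The set held 10 genes of the 41300 in the deposited table, matched by gene symbol: Trp53 itself, its inhibitors Mdm2 and Mdm4, and the target genes Cdkn1a, Ccng1, Trp53inp1, Plk2, Rrm2b, Sesn2 and Perp. They were named from knowledge of the pathway and not by a threshold on these values, but with earlier results of these data known. The set is therefore not independent of these data. All 10 were found, and all are protein-coding. On mm10, as the table gives them, Trp53 lies at chr11:69580359-69591873, Mdm2 at chr10:117688875-117710758 and Mdm4 at chr1:132959484-133025416. Cdkn1a lies at chr17:29090979-29100722, Ccng1 at chr11:40748552-40755311, Trp53inp1 at chr4:11156431-11174379 and Plk2 at chr13:110395046-110400844. Rrm2b lies at chr15:37923952-37961103, Sesn2 at chr4:132492032-132510501 and Perp at chr10:18845020-18857073.

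p53 is kept low in unstressed cells because MDM2, an E3 ubiquitin ligase, marks it for destruction and because MDM4, a relative of MDM2, binds and masks its activation domain. DNA damage, replication stress and nucleolar stress free p53 from both, mostly without a change in its mRNA, and the stabilized protein then activates genes for cell cycle arrest (Cdkn1a), repair and nucleotide supply (Rrm2b), antioxidant defence (Sesn2) and cell death, and also Mdm2, which closes a feedback loop. Target mRNA is therefore usually read as the output of the pathway, and Trp53 mRNA as its supply. In the oocyte, germ-line quality control rests largely on the p53 relative p63 (Trp63), and the embryo starts with stored maternal mRNA that is cleared around the major genome activation of the 2-cell stage.

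Single MII oocytes and single embryos of the 2-cell, 4-cell and 8-cell stages (2c, 4c and 8c) of strain C57BL/6 were sequenced as polyadenylated RNA. Embryos were 1.5, 2.5 and 3.5 days post fertilization. Wildtype groups are labelled WT (m+/p-) and knockout groups Kdm4a knockout (m-/p-). All embryos of both genotypes came from eggs fertilized with Kdm4a-knockout sperm, so that the wildtype embryos, too, lacked a functional paternal copy, whereas the oocytes were unfertilized. Both genotypes were collected together, at the time when the control embryos reached the stage. There were 16 replicates in each of the 8 groups, and the labels name neither the mothers nor how the deleted allele was made, so each p-value reflects only how single oocytes or embryos of a group vary. Each library is a whole oocyte or embryo, and fewer cells and less RNA per cell cannot be told apart.

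Depth ran from 528377 to 4657857 counts over the 127 libraries used (median 2130015), after 8c knockout replicate 4, with 419 counts, was left out. Levels are CPM, a gene's counts divided by the library's total and scaled to 1000000 counts, and a floor of 3 counts corresponded to between 0.644 and 5.68 CPM, depending on the library. Kdm4a itself had a mean of 10.9 ± 3.05 CPM (SD, n = 16) in wildtype oocytes, against 1.28 ± 0.904 CPM (n = 16) in knockout oocytes, and 15.1 ± 4.81 against 2.65 ± 1.83 CPM at 2c. In the quasi-likelihood test of edgeR, whose p-values after Benjamini-Hochberg adjustment are given throughout unless another tool is named, it was lower in the knockout in both (log2 fold change -3.0 in oocytes, adjusted p = 4.96e-11, and -2.42 at 2c, adjusted p = 3.32e-07). At 4c the means were 4.59 ± 3.58 and 1.76 ± 1.47 CPM (without the filter on low counts, log2 fold change -1.36, adjusted p = 0.108) and at 8c 1.31 ± 1.16 and 1.99 ± 2.22 CPM, so the gene gave no check of the labels at 8c.

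2 of the 8c knockout libraries went against their stage. Correlations were taken on log2(CPM + 1) over the genes that passed a floor on mean CPM. Replicate 7 correlated at r = 0.0978 with its own group's mean profile and at 0.756 with the wildtype MII mean. Its 8 oocyte markers summed to 3087 CPM against 10.2 to 45.7 CPM in the 16 wildtype 8c embryos. Replicate 16 was closer to the wildtype 4c mean (r = 0.932) than to the wildtype 8c mean (r = 0.903). The 8c values are therefore given without replicate 7 and, beside them, with it, and the tests were repeated with both libraries left out.

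Promoter sequences are shown first, since p53 is known to bind its targets through paired copies of a 10-base element, the p53 half-site, and the results below turn on such targets. RefSeq windows of 300 bases (250 before to 50 after the start) on GRCm38.p6 were held for 7 of the 10 genes, in 9 windows. An exact half-site, which reads alike on both strands, was found in 4 of the 9 windows and in 8.36% of all 32851 promoter windows. A pair of half-sites with at most 1 mismatch in all and 0 to 13 bases between them was found in 2 of the 9 and in 0.627% of all windows. The 250 bases before the start are shown for the pair-bearing genes Ccng1 (chr11:40755287-40755536, minus strand) and Cdkn1a (chr17:29090729-29090978, plus strand, the upstream of 2 starts), for Mdm2 (chr10:117710759-117711008, minus strand), which had 1 half-site, and for Plk2 (chr13:110394794-110395043, plus strand), which had none, with matched half-sites in capitals.
Ccng1: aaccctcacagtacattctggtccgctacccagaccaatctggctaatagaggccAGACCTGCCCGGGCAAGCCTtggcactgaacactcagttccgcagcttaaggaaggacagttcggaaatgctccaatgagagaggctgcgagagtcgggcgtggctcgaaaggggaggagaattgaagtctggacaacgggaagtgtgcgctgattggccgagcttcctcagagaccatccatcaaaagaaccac
Cdkn1a: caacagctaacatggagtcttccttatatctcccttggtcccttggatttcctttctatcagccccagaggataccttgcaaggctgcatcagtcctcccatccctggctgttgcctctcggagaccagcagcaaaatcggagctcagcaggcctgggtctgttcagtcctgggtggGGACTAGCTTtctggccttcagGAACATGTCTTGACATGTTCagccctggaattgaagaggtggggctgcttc
Mdm2: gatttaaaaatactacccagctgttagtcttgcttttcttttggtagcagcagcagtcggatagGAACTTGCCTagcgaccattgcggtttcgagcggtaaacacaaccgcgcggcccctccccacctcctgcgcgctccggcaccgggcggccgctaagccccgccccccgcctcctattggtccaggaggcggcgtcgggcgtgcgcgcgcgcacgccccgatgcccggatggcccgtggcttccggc
Plk2: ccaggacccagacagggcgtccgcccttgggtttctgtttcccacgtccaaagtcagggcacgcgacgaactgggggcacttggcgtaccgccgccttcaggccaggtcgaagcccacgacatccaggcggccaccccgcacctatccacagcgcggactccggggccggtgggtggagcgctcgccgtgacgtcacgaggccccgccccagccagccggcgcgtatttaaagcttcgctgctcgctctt
In Ccng1 the pair had 1 mismatch and no bases between its elements, and began 195 bases before the start. In Cdkn1a 3 elements lay close together. The downstream pair began 51 bases before the start with 1 mismatch and no bases between, and its first element also formed a pair with an exact element 12 bases upstream of it. Trp53 held 1 exact half-site, which began 75 bases before its start, and no match was found in either Mdm4 window, in Sesn2 or in the second Cdkn1a window. Elements outside the 300-base windows were not searched, so a window without a match does not show that a gene lacks one. No window was held for Trp53inp1, Rrm2b or Perp. A match is a description of these letters, and binding was not measured.

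In wildtype oocytes the mRNAs of the inhibitors and of 2 targets were abundant, and those of the other targets were scarce. Per kilobase of exon, Mdm4 led with 359.9 ± 26.6 CPM (SD, n = 16), followed by Rrm2b with 80.6 ± 8.62, Mdm2 with 68.9 ± 12.7 and Trp53inp1 with 41.3 ± 5.36. Rrm2b and Mdm2 differed by less than the sum of their SDs. Trp53 stood at 6.98 ± 1.91 CPM per kilobase. Ccng1 (1.69 ± 0.875), Plk2 (1.12 ± 0.742) and Perp (1.06 ± 0.472) differed from each other by less than the sum of their SDs, and Cdkn1a (0.0686 ± 0.15) and Sesn2 (0.0175 ± 0.0518) were at or near 0, with counts in 3 and 2 of the 16 oocytes.

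By the 8c stage this order had changed. In wildtype 8c embryos Ccng1 led with 19.7 ± 11.1 CPM per kilobase, followed by Mdm2 (15.9 ± 6.71), Mdm4 (13.2 ± 2.92), Perp (12.2 ± 5.71), Cdkn1a (8.99 ± 3.95), Trp53inp1 (7.95 ± 2.9), Plk2 (4.86 ± 4.92), Trp53 (4.71 ± 2.36), Rrm2b (3.89 ± 1.67) and Sesn2 (1.18 ± 0.931). Each of these neighbours lay within 1 SD of the next, except Rrm2b and Sesn2.

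**Figure D1:**
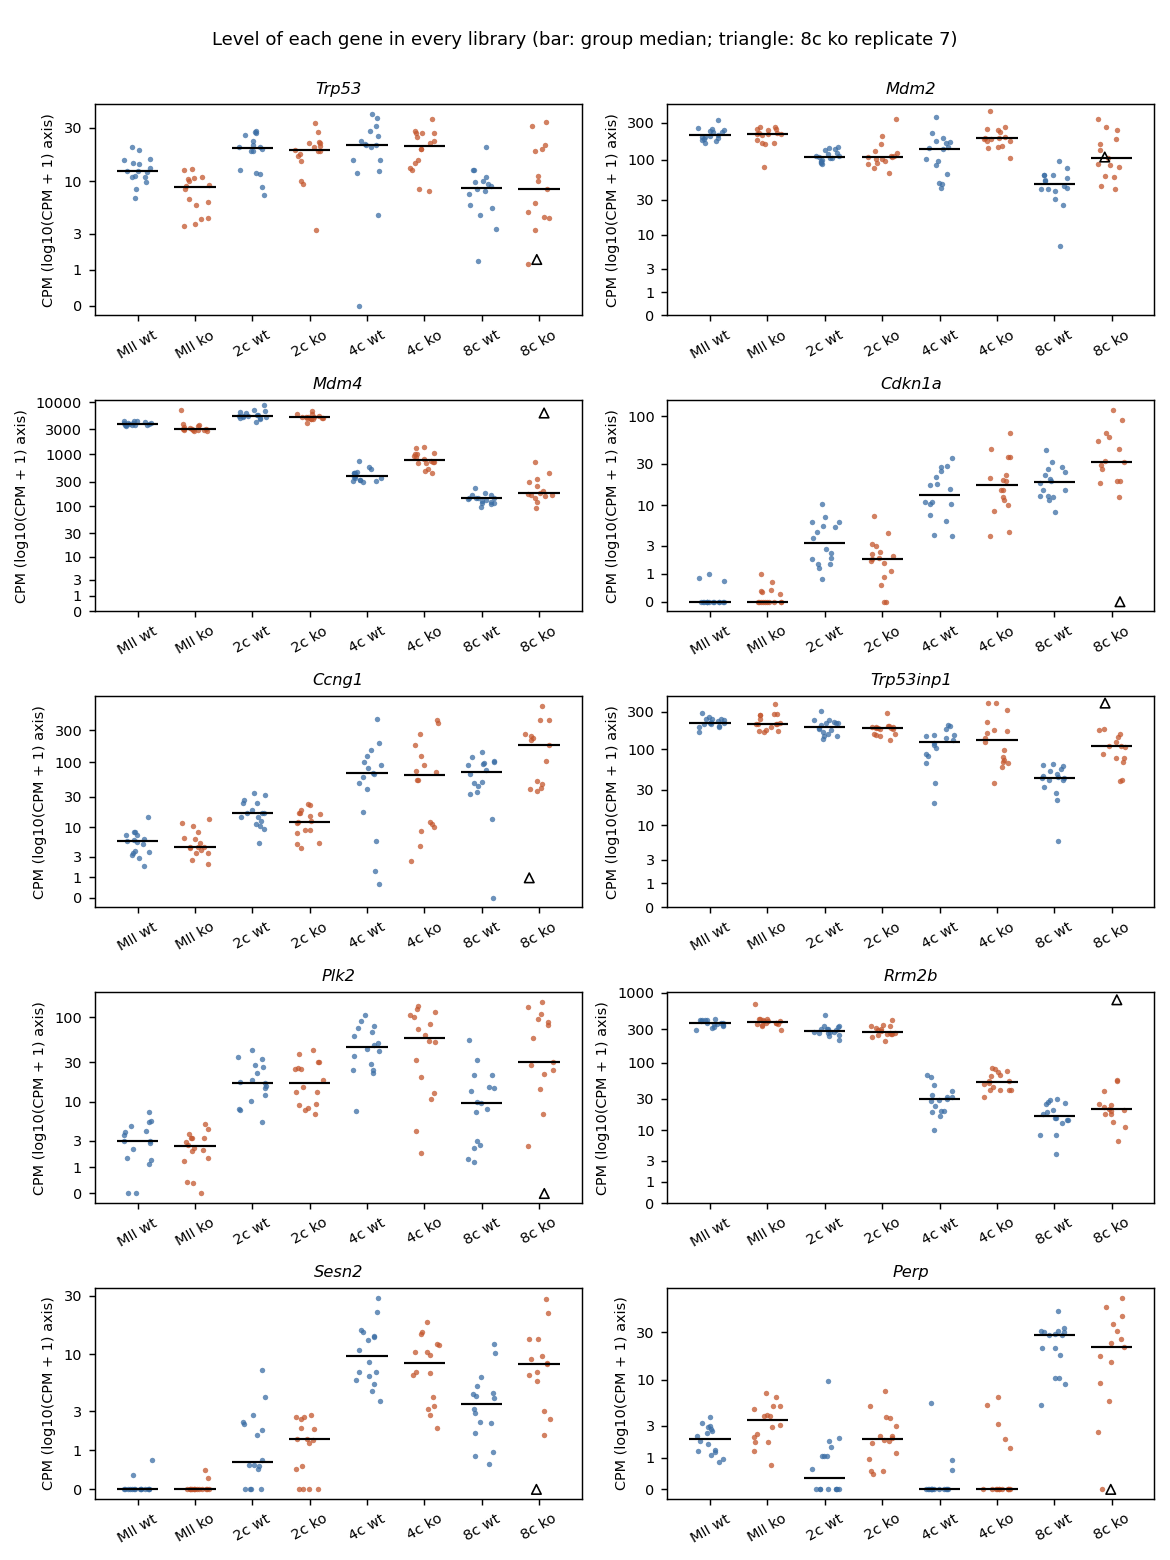
CPM of each of the 10 genes in every library (log10(CPM + 1) axis), by stage and genotype (blue, wildtype; orange, knockout; bar, group median). Mdm4 and Rrm2b fell between 2c and 4c, Cdkn1a and Sesn2 rose from near 0, Perp rose at 8c, and 8c knockout replicate 7 (triangle) lay at 6192 CPM for Mdm4 and at 0 for Cdkn1a, Plk2, Sesn2 and Perp.

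The wildtype series showed how the relative level of each mRNA changed from stage to stage. Whether an mRNA was stored or newly made was not measured. From MII to 2c, 3 of the 7 genes tested passed the test for a stage change (adjusted p under 0.05, with a change of 1 or more on the log2 scale in either direction), against 51.1% of all genes tested: Plk2 (log2 fold change 2.21, SE 0.332) and Ccng1 (1.17, SE 0.246) rose and Mdm2 fell (-1.36, SE 0.134). Plk2, a polo-like kinase that acts on centrioles and in the S-phase stress response, was 3.14 ± 2.08 CPM in oocytes and 19.5 ± 10.6 CPM at 2c. Cdkn1a, the gene of the cyclin-dependent kinase inhibitor p21, was under the filter on low counts in this step, with 0.153 ± 0.332 and 3.96 ± 2.66 CPM, and without the filter it rose too (3.75, SE 0.537), as did Sesn2 (3.38, SE 0.648), while Perp fell (-1.4, SE 0.44). The median log2 fold change of all genes was 0.21 in this step and 0.33 with RLE size factors, under which the same count of 3 was reached.

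From 2c to 4c, 6 of 9 changed, against 74.4% of all genes tested. Mdm4 fell from 5758 ± 1099 to 416.6 ± 119.2 CPM (log2 fold change -4.08, SE 0.149), and no 4c embryo reached the lowest 2c value, 4126 CPM. Rrm2b, a subunit of ribonucleotide reductase that supplies deoxynucleotides outside S phase, fell from 297.4 ± 62.1 to 31.6 ± 15.6 CPM (-3.54, SE 0.162), again with no overlap. The other 4 called genes rose. Ccng1, the gene of cyclin G1, which recruits a phosphatase to MDM2, rose from 18.1 ± 8.17 to 93.3 ± 108 CPM (2.04, SE 0.494), with 4c embryos spread from 0.583 to 442 CPM. Sesn2, a leucine sensor and antioxidant factor, rose from 1.55 ± 1.93 to 11.5 ± 6.92 CPM (2.58, SE 0.434), Cdkn1a from 3.96 ± 2.66 to 15.8 ± 9.26 CPM (1.71, SE 0.353), and Plk2 to 50.1 ± 27.2 CPM (1.06, SE 0.353). The median log2 fold change of all genes in this step was -0.48, and with RLE size factors it was -0.76; under that scaling Plk2 (0.78) lost its call and Trp53inp1, an autophagy and cell death cofactor of p53, gained one (-1.28, against -0.99).

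From 4c to 8c, 7 of 10 changed, against 20.6% of all genes tested, and 6 of the 7 fell. Trp53 fell from 20.4 ± 10.5 to 8.79 ± 4.41 CPM (log2 fold change -1.09, SE 0.339, adjusted p = 0.00935), Mdm2 from 136.9 ± 80.1 to 49.9 ± 21.1 CPM (-1.33, SE 0.259), and Plk2 to 13.6 ± 13.8 CPM (-1.74, SE 0.483). Trp53inp1 (-1.36, SE 0.315), Sesn2 (-1.35, SE 0.371) and Mdm4 (-1.42, SE 0.411) fell as well. Perp, a p53-induced membrane protein that epithelia also use in desmosomes, rose from 0.435 ± 1.39 CPM, with 13 of the 16 embryos at 0, to 23.9 ± 11.2 CPM (5.69, SE 0.722). Cdkn1a (0.46, adjusted p = 0.289), Ccng1 (-0.27, adjusted p = 0.744) and Rrm2b (-0.71, adjusted p = 0.216) were not called.

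In oocytes, which were compared to ask whether the stored mRNA differed, 1 of the 6 genes tested was called, against 12% of all genes. Trp53 ranged from 7.06 to 20.4 CPM (median 12.4) in the 16 wildtype and from 3.67 to 13.1 CPM (median 8.80) in the 16 knockout oocytes. The ranges overlapped, and only 2 of 16 knockout oocytes were above the wildtype median. It was lower in the knockout by a log2 fold change of -0.66 (SE 0.17, adjusted p = 0.00863). For Trp53 the difference was uneven over the replicate numbers, with -0.29 (SE 0.196, adjusted p = 0.382) in replicates 1 to 8 alone and -1.17 (SE 0.227, adjusted p = 0.0106) in replicates 9 to 16 alone. The knockout oocytes numbered 1 to 8 lay at 9.03 to 13.1 CPM and those numbered 9 to 16 at 3.67 to 8.58 CPM, without overlap, whereas the wildtype oocytes lay at 7.06 to 20.4 CPM and 8.47 to 19.1 CPM. Mdm4 depended on 1 library: it was 3465 to 4419 CPM (median 3860) in wildtype and 2778 to 6989 CPM (median 3083) in knockout oocytes, where replicate 15 held the highest value. That library stood apart from the other oocytes. It correlated at r = 0.857 with its own group's mean profile, where every other oocyte reached at least 0.979, and at 0.808 with the wildtype 2c mean. Its mitochondrial share of counts was 3.58%, against at most 1.95% in wildtype oocytes. The log2 fold change of Mdm4 was -0.15 (adjusted p = 0.451) with that oocyte and -0.29 (SE 0.057, adjusted p = 0.000288) without it, and 12 of the 16 knockout oocytes were below the lowest wildtype oocyte. Mdm2 (-0.06), Ccng1 (0.08), Trp53inp1 (0.09) and Rrm2b (0.16) were not called. Perp was under the filter at 2.08 ± 0.921 CPM in wildtype and 3.55 ± 1.86 CPM in knockout oocytes, with 8 of 16 knockout oocytes above the highest wildtype oocyte, and without the filter its log2 fold change was 0.81 (adjusted p = 0.0786).

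At 2c none of the 7 genes tested was called, against 17.3% of all genes. With all libraries and no covariate, none had an unadjusted p under 0.05 in edgeR, and neither DESeq2 nor limma voom called one. In edgeR 1 gene did with depth as a covariate, in replicates 1 to 8 alone and without knockout replicate 13. Over 10 alternatives Ccng1 ran from -1.045 to 0.04 and was never called (lowest adjusted p 0.0517). The log2 fold changes lay between -0.45 (Ccng1, SE 0.236, adjusted p = 0.185) and 0.21 (Mdm2, SE 0.154), and those of Mdm4 (-0.10, approximate 95% interval -0.28 to 0.07) and Rrm2b (0.00, -0.18 to 0.18) were bounded closely. Cdkn1a was under the filter, at 3.96 ± 2.66 CPM in wildtype and 2.18 ± 1.84 CPM in knockout embryos.

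At 4c, 2 of 9 genes were called, both higher in the knockout, against 16.4% of all genes. Mdm4 ranged from 295 to 744 CPM (median 380.3) in wildtype and from 441 to 1396 CPM (median 785) in knockout embryos. All 16 knockout embryos were above the wildtype median and 9 were above the highest wildtype embryo. The log2 fold change was 1.01 (SE 0.154, adjusted p = 2.46e-05). Rrm2b ranged from 10 to 66.6 CPM (median 29.1) in wildtype and from 32.1 to 83.5 CPM (median 52.9) in knockout embryos, again with all 16 above the wildtype median, and its log2 fold change was 0.83 (SE 0.203, adjusted p = 0.00465). Both are mRNAs that wildtype embryos lost between 2c and 4c.

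The summed oocyte markers moved with this difference, with a median of 70.8 CPM in wildtype (17.1 to 220 CPM) and 145.6 CPM in knockout embryos (90.0 to 814 CPM) at 4c, and their part in it was not tested. Mdm2 was higher by 0.56 without a call (SE 0.217, adjusted p = 0.0687), and DESeq2 (0.58, adjusted p = 0.0448) and limma voom (0.66, adjusted p = 0.019) called it. In replicates 1 to 8 alone Mdm2 was higher by 1.04 (adjusted p = 0.0395) and in replicates 9 to 16 alone by 0.15 (adjusted p = 0.823). Mdm4 was called in both sets (0.88 and 1.13), and Rrm2b was 0.82 in each without a call (adjusted p = 0.164 and 0.0828). Cdkn1a (0.44), Trp53inp1 (0.43), Plk2 (0.28), Ccng1 (0.25), Trp53 (-0.01) and Sesn2 (-0.41) were not called, with adjusted p of at least 0.338.

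Whether the genotype difference changed between stages was tested as an interaction. From MII to 2c no gene of 7 was called (3.99% of all genes were), with Trp53 at an unadjusted p of 0.0154 (log2 difference 0.68, adjusted p = 0.138) and no call by DESeq2. From 2c to 4c, 2 of 9 were called, against 15.5% of all genes: the fall of Mdm4 was smaller in the knockout by 1.13 (SE 0.187, adjusted p = 2.22e-05) and that of Rrm2b by 0.84 (SE 0.208, adjusted p = 0.00343) on the log2 scale. Cdkn1a (1.18, SE 0.501, adjusted p = 0.0963) was not called. The median log2 difference of all genes in this interaction was 0.20. With RLE size factors it was 0.13, and Mdm4 (1.07) and Rrm2b (0.77) were again called.

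**Figure D2:**
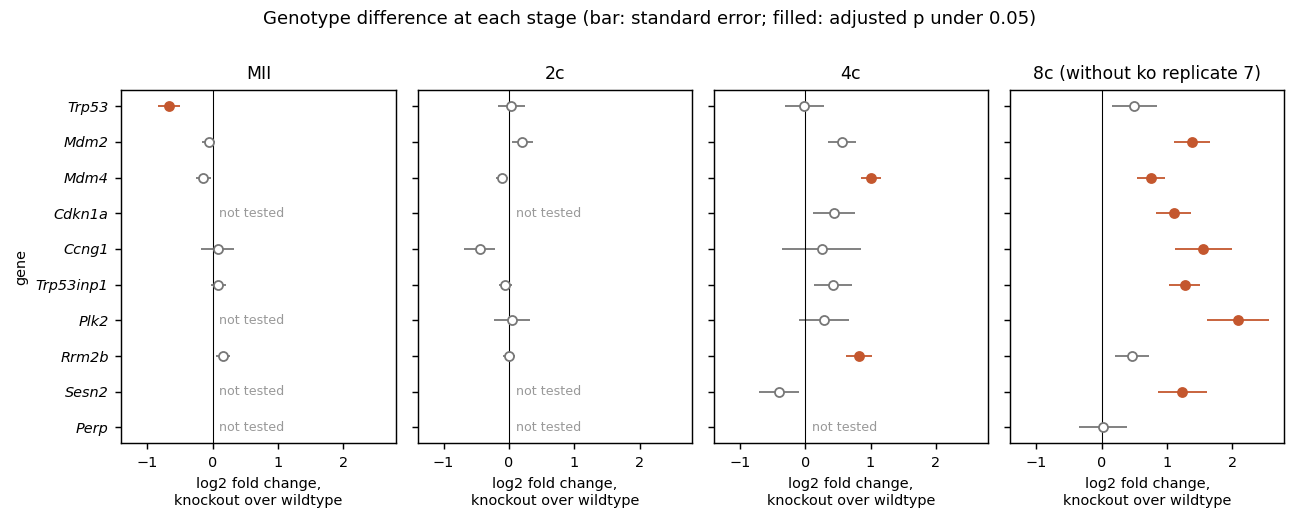
Log2 fold change of knockout over wildtype for the 10 genes at each stage, with standard errors; filled points have an adjusted p under 0.05, and the 8c panel leaves out knockout replicate 7. Calls were 1 in oocytes, none at 2c, 2 at 4c and 7 at 8c.

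At 8c most of the 10 genes were called higher in the knockout embryos. With replicate 7 left out, 7 of the 10 genes were called, all higher, where 12.4% of all genes were called and 6.94% were called higher. With replicate 7 kept, 5 were called, all higher, where 11.6% of all genes were called; those were Mdm2, Plk2, Trp53inp1, Mdm4 and Rrm2b, and the values of the last 2 rested on that library. DESeq2 also called 7 without replicate 7, where it called 15.5% of all genes. There limma voom called 4 (Mdm2, Plk2, Cdkn1a and Trp53inp1), and 15.55% of all genes. Mdm4 (0.36, adjusted p = 0.167), Ccng1 (1.57, adjusted p = 0.0776) and Sesn2 (1.10, adjusted p = 0.0562) were not called by limma voom. The median log2 fold change of the 10 genes was 1.17 without replicate 7, and that of all genes tested was 0.03.

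Cdkn1a ranged from 8.26 to 42.1 CPM (median 18.6) in the 16 wildtype embryos and from 12.6 to 117 CPM (median 31.8) in 14 knockout embryos. The ranges overlapped, with 6 of 14 above the highest wildtype embryo and 12 of 14 above the wildtype median. The log2 fold change was 1.10 (SE 0.266, adjusted p = 0.00584) without replicate 7, where Cdkn1a was 0, and 0.99 (adjusted p = 0.0556) with it.

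Mdm2 ranged from 6.95 to 96.7 CPM (median 48.8) in wildtype and from 41.8 to 338 CPM (median 96.6) in 14 knockout embryos. 7 of 14 lay above the highest wildtype embryo. The log2 fold change was 1.39 (SE 0.28, adjusted p = 0.00133), and 1.43 (adjusted p = 0.0023) with replicate 7.

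Ccng1 ranged from 0 to 140.3 CPM (median 72.2) in wildtype and from 36.7 to 687 CPM (median 197) in 14 knockout embryos. Of the knockout embryos, 5 lay at 36.7 to 51.3 CPM and 9 at 105 to 687 CPM, and 8 were above every wildtype embryo. The log2 fold change was 1.56 (SE 0.442, adjusted p = 0.0186), and 1.45 (adjusted p = 0.0558) with replicate 7.

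Trp53inp1 separated the genotypes most often, with 5.99 to 63.8 CPM (median 43.0) in wildtype and 38.7 to 179 CPM (median 107) in 14 knockout embryos, of which 12 were above the highest wildtype embryo. Knockout replicates 6 and 13 lay within the wildtype range. The log2 fold change was 1.27 (SE 0.232, adjusted p = 0.000635), and 1.78 (adjusted p = 0.00191) with replicate 7.

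Plk2 ranged from 1.30 to 54.1 CPM (median 9.75) in wildtype and from 2.50 to 150.5 CPM (median 43.7) in 14 knockout embryos, with 7 above the highest wildtype embryo. Its log2 fold change was the largest of the 10 without replicate 7, 2.09 (SE 0.473, adjusted p = 0.0038), and it was 1.98 (adjusted p = 0.0145) with it. Sesn2 ranged from 0.561 to 12.1 CPM (median 3.58) in wildtype and from 1.62 to 28.3 CPM (median 8.26) in knockout embryos, with 4 above the highest wildtype embryo. Its log2 fold change was 1.24 (SE 0.379, adjusted p = 0.0273), 1.13 (adjusted p = 0.0673) with replicate 7, and 1.02 (adjusted p = 0.0586) with replicates 7 and 16 both left out.

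Mdm4 ranged from 95.9 to 227 CPM (median 143) in wildtype and from 95.3 to 716 CPM (median 181) in 14 knockout embryos, with replicate 16 the highest. The log2 fold change was 0.75 (SE 0.21, adjusted p = 0.0168), 0.53 (adjusted p = 0.0405) without replicates 7 and 16, and 2.88 (SE 0.631, adjusted p = 0.00445) with both, since replicate 7 alone held 6192 CPM. Rrm2b was 3.96 to 29.2 CPM (median 16.5) in wildtype and 6.79 to 55.3 CPM (median 20.7) in 14 knockout embryos. It was called only with replicate 7 (2.86, adjusted p = 0.00771), which held 794.5 CPM, and its log2 fold change without it was 0.46 (SE 0.263, adjusted p = 0.257).

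The gene of p53 itself and Perp were not called. Trp53 ranged from 1.39 to 20.3 CPM (median 8.75) in wildtype and from 1.26 to 33.5 CPM (median 9.36) in 14 knockout embryos, with a log2 fold change of 0.50 (approximate 95% interval -0.17 to 1.18, adjusted p = 0.352), and 0.41 (adjusted p = 0.48) with replicate 7. Perp ranged from 5.25 to 47.7 CPM (median 28.1) in wildtype and from 0 to 64.8 CPM (median 22.3) in knockout embryos, with a log2 fold change of 0.03 (-0.70 to 0.75, adjusted p = 0.974), and -0.08 (adjusted p = 0.922) with replicate 7.

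The knockout embryos were not alike. Of 14 knockout embryos, 13 had at least 1 of the 10 genes above every wildtype embryo and 8 had 4 or more, with the most in replicate 1 (8 genes) and in replicates 5 and 12 (7 genes each), and replicate 6 had none. This is a description only. The same count was not made over all genes, and no wildtype embryo can lie above the highest of its own group. The genes did not peak in the same embryos: replicate 1 was highest for Mdm2 (338 CPM) and Cdkn1a (117 CPM), replicate 9 for Plk2 (150.5 CPM), replicate 10 for Ccng1 (687 CPM), replicate 12 for Trp53inp1 (179 CPM) and Trp53 (33.4 CPM), and replicate 16 for Sesn2 (28.3 CPM). Replicate 13 was the lowest of the 14 for Mdm2 (41.8 CPM), Trp53inp1 (38.7 CPM), Plk2 (2.50 CPM) and Perp (0 CPM).

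**Figure D3:**
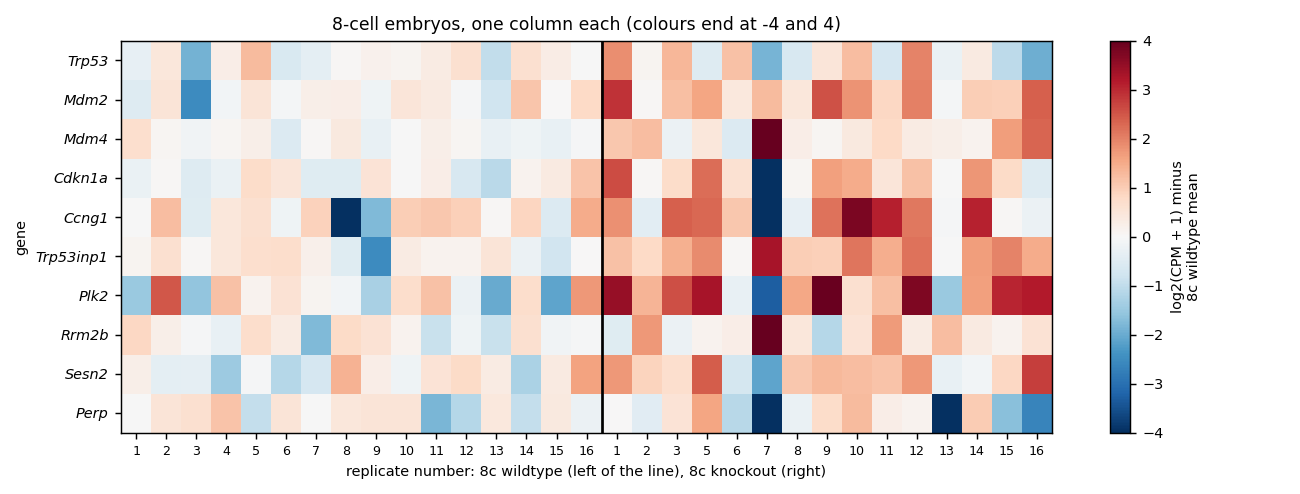
Log2(CPM + 1) of the 10 genes in each 8c embryo, relative to the wildtype 8c mean; each column is 1 embryo, wildtype to the left of the line and knockout to the right. Knockout columns are mostly red for Mdm2, Ccng1, Trp53inp1 and Plk2, but replicate 6 has no gene above the wildtype range and replicate 7 stands apart.

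Most 8c calls were lost in smaller sets of libraries, where few genes of any kind were called. Replicates 1 to 8 alone, with replicate 7 left out, gave 0 calls of 10, where 0.498% of all genes were called, with 5 genes at an unadjusted p under 0.05; replicates 9 to 16 alone gave 2 (Mdm2 and Trp53inp1), where 1.62% of all genes were called. Log2 fold changes in those sets were 1.41 and 1.34 (called) for Mdm2, 1.72 and 2.40 for Plk2, 1.41 and 0.83 for Cdkn1a, and 0.77 and 1.69 (called) for Trp53inp1. Beside the 8c result, the summed oocyte markers were 19.4 to 134 CPM (median 43.5) in the 14 knockout embryos against 10.2 to 45.7 CPM (median 27.8) in wildtype, and the mitochondrial share of counts was 7.26 ± 2.18% against 6.26 ± 1.25%. The 9 8-cell markers summed to 93.5 to 170 CPM against 115 to 207 CPM, and the 10 cumulus and granulosa markers to 0 to 2.24 CPM against 0 to 3.03 CPM, with Amh and Fshr at 0 in every 8c embryo. The part of the oocyte markers and of the mitochondrial share in the 8c result was not tested.

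The 8c knockout embryos were then set against wildtype 4c embryos, since both genotypes were collected by the progress of the control embryos. Without replicate 7, 3 of 10 genes were called, where 40.2% of all genes were, and with it 4, where 39.1% were. These comparisons share the 8c knockout libraries with those above.

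Mdm2 (0.04, approximate 95% interval -0.46 to 0.55), Trp53inp1 (-0.10, -0.65 to 0.45), Sesn2 (-0.13, -0.80 to 0.54) and Plk2 (0.34, -0.53 to 1.21) were called lower in wildtype 8c than in wildtype 4c embryos and were not called between knockout 8c and wildtype 4c embryos. With replicate 7 the values of these 4 genes were 0.08, 0.31, -0.22 and 0.24, again without a call. Mean levels were, for Mdm2, 134.5 ± 90.9 CPM in knockout 8c, 136.9 ± 80.1 CPM in wildtype 4c and 49.9 ± 21.1 CPM in wildtype 8c embryos. For Plk2 they were 59.9 ± 48.7, 50.1 ± 27.2 and 13.6 ± 13.8 CPM. Trp53 met both conditions as well (-0.60, approximate 95% interval -1.25 to 0.06, against wildtype 4c), but it was not called between the genotypes at 8c. A missing call does not show that levels were equal.

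Mdm4 lay between the stages: without replicate 7 the knockout 8c embryos were below wildtype 4c by -0.68 (SE 0.19, adjusted p = 0.00283) and above wildtype 8c, whereas with replicate 7 the first difference was 1.201, in the other direction.

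Cdkn1a and Perp were called higher than in wildtype 4c embryos. Cdkn1a was higher in knockout 8c embryos (44.1 ± 30.4 CPM, n = 14) than in wildtype 4c (15.8 ± 9.26 CPM; log2 fold change 1.55, SE 0.307, adjusted p = 4.24e-05) and than in wildtype 8c embryos (19.99 ± 8.77 CPM). Perp was 24.8 ± 19.1 CPM against 0.435 ± 1.39 CPM in wildtype 4c and 23.9 ± 11.2 CPM in wildtype 8c embryos (log2 fold change over wildtype 4c 5.71, SE 0.678, adjusted p = 1.29e-09). Ccng1 was higher than in wildtype 4c by 1.28 (SE 0.56, adjusted p = 0.0606) without a call, and with replicates 7 and 16 left out by 1.34 (adjusted p = 0.0494) with one. Trp53 (-0.60, adjusted p = 0.148) and Rrm2b (-0.26, adjusted p = 0.399) were not called without replicate 7. With it, Cdkn1a (1.46, adjusted p = 0.000643), Perp (5.61, adjusted p = 1.66e-08) and Rrm2b (1.89, adjusted p = 0.000917) were called, and Ccng1 (1.18, adjusted p = 0.105) and Trp53 (-0.68, adjusted p = 0.109) were not.

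**Figure D4:**
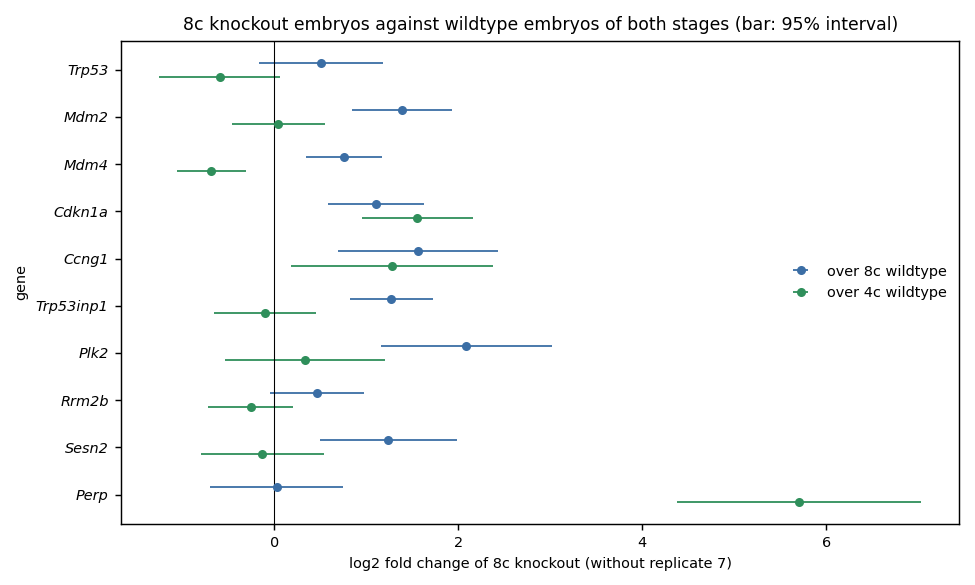
Log2 fold change of 8c knockout embryos (without replicate 7) over wildtype 8c and over wildtype 4c embryos, with approximate 95% intervals. Mdm2, Trp53inp1, Plk2 and Sesn2 lie above 0 against wildtype 8c and near 0 against wildtype 4c, Cdkn1a lies above 0 against both, and Perp is at 5.71 against wildtype 4c and near 0 against wildtype 8c.

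The change of the genotype difference from 4c to 8c was not called for any of the 10 genes in edgeR with TMM scaling, with replicate 7 (2.73% of all genes called) or without it (1.86% of all genes called). Without it, 4 genes had an unadjusted p under 0.05: Sesn2 (log2 difference 1.62, SE 0.484, adjusted p = 0.0613), Plk2 (1.78, SE 0.627, adjusted p = 0.134), Mdm2 (0.81, SE 0.361, adjusted p = 0.275) and Trp53inp1 (0.82, SE 0.392, adjusted p = 0.317). With replicate 7, 6 genes did. DESeq2 then called Trp53inp1 (1.54, adjusted p = 0.0424) and Sesn2 (1.56, adjusted p = 0.0474), where it called 279 of 8822 genes. RLE size factors in edgeR called Mdm4, Rrm2b and Trp53inp1, where 484 of 8822 genes were called. With replicate 7 left out, RLE size factors called none of the 10.

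Beyond the 10 genes, 40 other p53 targets were listed, of which 13 to 19 passed the filter on low counts at a given stage. In oocytes none of 14 was called by edgeR, where 12% of all genes were (2 at an unadjusted p under 0.05). DESeq2 called 0 and limma voom 1. Ddb2 (-0.20, adjusted p = 0.308) and Ckap2 (0.13, adjusted p = 0.715) were the most abundant. At 2c, 4 of 13 were called, where 17.3% of all genes were. Abhd4 (0.72, adjusted p = 0.00013), Ddb2 (0.81, adjusted p = 0.000161), a damage sensor of nucleotide excision repair, and the spindle gene Psrc1 (0.76, adjusted p = 0.00471) were higher, and the spindle gene Ckap2 (-0.47, adjusted p = 0.0387) was lower. At 4c, 3 of 19 were called, a share close to the 16.4% of all genes: Ddb2 (1.06, adjusted p = 0.0128) and Ckap2 (1.02, adjusted p = 0.00167) were higher, and Tigar, a phosphatase that limits glycolysis, was lower (-0.77, adjusted p = 0.00108).

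At 8c without replicate 7, 3 of 15 other targets were called, all higher, where 6.94% of all genes were called higher. Pmaip1, which encodes the death-inducing BH3-only protein NOXA, ranged from 0 to 17.1 CPM (median 3.8) in wildtype and from 0 to 65.0 CPM (median 20.9) in 14 knockout embryos, with a log2 fold change of 2.47 (SE 0.545, adjusted p = 0.00301). Pmaip1, which was low in wildtype embryos, did not pass the filter on low counts with all 8c libraries or with replicates 7 and 16 both left out, and was not tested there. Where it passed, its entry depended in part on the knockout embryos, in which it was higher. Its call, 1 of the 3, is therefore not independent of that difference. Ercc5, a nuclease of nucleotide excision repair, was higher by 1.45 (SE 0.437, adjusted p = 0.025), and Polk, a translesion polymerase, by 1.58 (SE 0.49, adjusted p = 0.0283). The median log2 fold change of the 15 was 0.23, against 1.17 for the 10 genes and 0.03 for all genes tested. With replicate 7, 1 of 14 was called, Polk (1.52, adjusted p = 0.0469), where 11.6% of all genes were called and 617 of 7219 were called higher.

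Among 26 regulators of p53 (E3 ligases, deubiquitinases, kinases, acetylases, deacetylases, methyltransferases, ribosomal proteins and others), between 0 and 5 were called at a stage. Usp10, a deubiquitinase of p53, was lower in knockout oocytes (-0.51, adjusted p = 0.0436), the only call of 18, where 12% of all genes were called. At 2c none of 18 was called by edgeR, where 17.3% of all genes were (6 at an unadjusted p under 0.05). DESeq2 and limma voom called 2 each. Rchy1 (0.18, adjusted p = 0.0605) and Chek1 (0.29, adjusted p = 0.109) were the most abundant. At 4c, 4 of 20 were called, all higher, where 16.4% of all genes were called in either direction: the E3 ligase gene Cop1, listed as Rfwd2 (0.69, adjusted p = 0.000912), the acetyltransferase gene Crebbp (0.56, adjusted p = 0.00908), the ubiquitin ligase gene Ube4b (0.77, adjusted p = 0.0206) and the checkpoint kinase gene Chek2 (0.41, adjusted p = 0.0445). At 8c without replicate 7, Rfwd2 (0.64, adjusted p = 0.00467), the deacetylase gene Sirt1 (0.80, adjusted p = 0.0113), Crebbp (0.43, adjusted p = 0.0452) and the damage kinase gene Atr (0.68, adjusted p = 0.0452) were higher, 4 of 20, where 6.94% of all genes were called higher. The median of the 20 was -0.00 at 8c. With replicate 7, where 11.6% of all genes were called, 5 of 20 were higher, among them Chek1 (1.86, adjusted p = 0.0287) and not Sirt1.

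Of the relatives of p53, Trp63 had means of 25.6 ± 4.34 CPM in wildtype and 28.5 ± 5.75 CPM in knockout oocytes, 29.6 ± 9.9 and 31.7 ± 8.6 CPM at 2c, and 0.0907 ± 0.197 CPM in wildtype 8c embryos, where 13 of 16 libraries had no count. Trp73 was highest at 2c, with 2.65 ± 1.68 CPM in wildtype and 2.79 ± 2.51 CPM in knockout embryos.

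**Figure D5:**
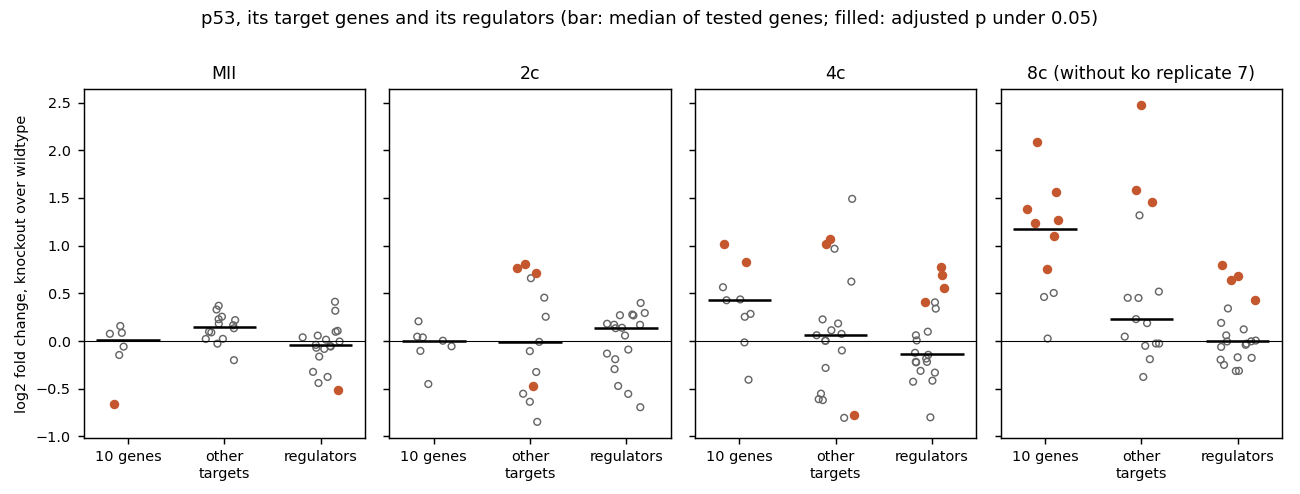
Log2 fold change of knockout over wildtype for the 10 genes, the other p53 targets and the p53 regulators that passed the filter on low counts, by stage (bar, median; filled, adjusted p under 0.05; 8c without knockout replicate 7). At 8c the medians were 1.17 for the 10 genes, 0.23 for the other targets and -0.00 for the regulators.

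The genes most like each of these (Sesn2, which reached 20 CPM in no group mean, left out) in their 8 group means were read from Pearson correlations of log2(CPM + 1) over 7527 genes; the points share libraries, and the 8c knockout mean held replicate 7. For Trp53 they were Lin7c (r = 0.964), Dopey1 (0.943) and Stil (0.935). For Mdm2 they were Ckap2l (0.954), Atad5 (0.943) and Cphx3 (0.927), and for Mdm4 Rcan3 (0.998), Nav3 (0.998) and Ncoa2 (0.996). Rrm2b was most like Dbf4, Ppp3r1 and Rasa2, each at r of at least 0.999. Cdkn1a was most like Kif15 (0.998), Mrpl42 (0.997) and Nxt2 (0.996), and Cdkn1a was itself the second most like Ccng1 (0.992), between Supt3 (0.992) and Mir17hg (0.988). Trp53inp1 was most like Rbm26 (0.977), Slc26a2 (0.975) and Fnbp4 (0.968), Plk2 like Zmym4 (0.984), RP24-320O9.1 (0.976) and Gm9 (0.973), and Perp like Slc35g1 (0.983), Arhgap18 (0.977) and Lrp2 (0.976). With 8 points such values were common for most of these genes: the gene of rank 100 still had r = 0.992 for Rrm2b, 0.985 for Mdm4, 0.984 for Cdkn1a, 0.966 for Ccng1, 0.929 for Plk2 and 0.913 for Trp53inp1. It had less for Trp53 (0.766), Mdm2 (0.764) and Perp (0.68).

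Across 8c embryos the relation of Cdkn1a to the other 9 genes was computed in each genotype, 18 relations in all, on log2(CPM + 1). None passed Benjamini-Hochberg adjustment of the permutation p (smallest adjusted p 0.0716 for Pearson and 0.0803 for Spearman). The strongest were in the 14 knockout embryos, with Perp (r = 0.676, permutation p = 0.00398, adjusted p = 0.0716; rho = 0.728, permutation p = 0.00446, adjusted p = 0.0803; r = 0.718 without the 2 embryos farthest from the median of Cdkn1a), with Ccng1 (r = 0.668, permutation p = 0.0097, adjusted p = 0.0873; rho = 0.596, permutation p = 0.0267, adjusted p = 0.127; r = 0.783 without the 2) and, in the other direction, with Rrm2b (r = -0.592, permutation p = 0.0264, adjusted p = 0.137; rho = -0.692, permutation p = 0.0092, adjusted p = 0.0828; r = -0.540 without the 2). In the 16 wildtype embryos the same relations were -0.204, 0.214 and 0.341, and the difference between the genotypes was not tested.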

How the data were processed

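Gene-level values of 127 single oocytes and embryos were used. The submitters' processing notes name Trimmomatic 0.32 for trimming, STAR 2.5.1a for alignment, mm10 as the build and featureCounts 1.5.1 for counting. The deposited values are estimated counts that need not be whole (30.56% of non-zero values were not, and 63.0% for Mdm4, 44.9% for Mdm2 and 43.3% for Trp53inp1), so these genes may share reads with near copies. Whether counting used strand was not given in the sources used here, and Rrm2b shares 356 exon bases with RP23-255N20.2 on the other strand (494 counts in all against 65047).

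The estimated counts were made whole by rounding, and libraries under 100000 counts were left out. CPM divide by the library total. Genotype was tested within each stage, and stage and interaction in fits of 4 groups from 2 neighbouring stages, with edgeR 4.0.16 (TMM, filterByExpr, robust quasi-likelihood F test, R 4.3.3), with Benjamini-Hochberg adjustment over all genes tested and a threshold of 0.05. Approximate 95% intervals are 1.96 SE wide on each side. Alternatives used DESeq2 1.42.0, limma 3.58.1 and other filters, scalings and library sets. On simulated counts for the 8c comparison without replicate 7 (7360 genes), 74.5% of genes changed by 1 on the log2 scale and 100% of those changed by 2 were recovered. All pairs of libraries within a group differed by more than sampling noise (chi-square per gene of at least 5.25).

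Named genes were all 10 genes, Kdm4a, up to 4 called genes with the smallest p per list and stage (the 2 most abundant where none was called) and the 3 genes most like each of the 10 that reached 20 CPM in some group. Pmaip1 levels and the relations of Cdkn1a were added after values were seen. The members and lists were chosen with earlier results of these data known. Numbers did not pair libraries across genotypes.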

Additional observations from a re-analysis of the deposited data

Results flagged for a closer look

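Mdm4 and Rrm2b were singled out because their genotype difference changed between 2c and 4c by a test of the interaction in edgeR: by 1.13 on the log2 scale for Mdm4 and by 0.84 for Rrm2b. They were 2 of the 9 genes tested, and 15.5% of all genes were called in this interaction. The median log2 difference of all genes was 0.20. At 2c the log2 fold changes were -0.10 and 0.00, and at 4c 1.01 and 0.83, with all 16 knockout 4c embryos above the wildtype median for both genes.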

How the results depend on the processing

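Of 116 alternative counts of called genes over the 11 comparisons, 102 lay within 1.5 times the reported count. In oocytes the count of 1 became 2 with limma voom (1563 of 7680 genes called) and without knockout replicate 15 (1517 of 7742 genes called). It became 0 when a change of 1 or more on the log2 scale was also required, which 141 of 7680 genes met. At 4c the count of 2 became 1 under that requirement (454 of 7478 genes) and in replicates 9 to 16 alone (412 of 7225 genes). At 8c the count of 5 (all libraries) became 0 in replicates 1 to 8 alone, where 0.0138% of all genes were called with knockout replicate 7 and 0.498% without it. It became 2 in replicates 9 to 16 alone, where 1.62% of all genes were called. Leaving out 1 library at a time gave 5 to 8, the 8 without wildtype replicate 16, where 780 of 7182 genes were called. From MII to 2c in wildtype the count of 3 became 6 without a filter, which adds genes (14100 of 32009 called). The 4c to 8c interaction count of 0 became 3 with RLE size factors (484 of 8822 genes called) and 2 with DESeq2 (279 of 8822 genes called). For 8c knockout against wildtype 4c, where the main values with all libraries were 1.201 for Mdm4 and 1.89 for Rrm2b, Mdm4 reversed to -0.67 (DESeq2), -0.41 (replicate block), -0.68 (without 8c knockout replicate 7), -0.69 (RLE size factors without it) and -0.93 (without replicates 7 and 16), and Rrm2b to -0.26 (DESeq2), -0.26 (without replicate 7), -0.26 (RLE size factors without it) and -0.29 (without replicates 7 and 16). Apart from the library left out, the cause was not tested. In 62 further alternatives the sign changed where neither value was called (size at most 0.50). The replicate number as a block moved the 8c count from 5 to 2, where the share of all genes called fell from 11.6% to 1.59%. With replicate 7 left out the count moved from 7 to 6, and that share from 12.4% to 9.52%. The block moved the count for 8c knockout against wildtype 4c from 4 to 2, where 2793 of 8822 genes were called, against 3446 without the block. Same-numbered libraries of the genotypes deviated together at a mean r of only -0.04 to 0.06 by stage. No more than 2 of 16 wildtype libraries of a stage correlated best with their own number. Combinations with replicate 7 left out, and the fits without replicates 7 and 16, were chosen after seeing the data. Depth limits Cdkn1a and Sesn2 before 4c, where several libraries held no count. Perp is limited through 4c. It had no count in 8 of 16 wildtype 2c, 13 of 16 wildtype 4c and 11 of 16 knockout 4c embryos.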
